A study of Homo sapiens with 16 samples.

Results

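The genes PAX3 and FOXO1 are the partners of the PAX3-FOXO1 fusion, and the open chromatin regions at both were followed after the fusion protein was targeted for degradation. Members were the regions of the deposited count tables that overlapped chr2:223050000-223200000 (PAX3) or chr13:41100000-41300000 (FOXO1) on hg19. Experiment 6086 had 12 such regions among 56949, with 5 at PAX3 and 7 at FOXO1. Experiment 6211 had 12 among 40844, with 7 at PAX3 and 5 at FOXO1. The windows were set by position and used no measured value.

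Chromatin accessibility was measured by ATAC-seq, an assay in which a transposase cuts open DNA and leaves sequencing adapters. All 16 libraries came from Rh30, an alveolar rhabdomyosarcoma cell line, in a version labelled Rh30_PAX3-FOXO1-FKBP, whose fusion protein carries the FKBP tag. Cells received DMSO or 500 nM dTAG47, which brings FKBP-tagged proteins to a ubiquitin ligase. Experiment 6211 had groups of DMSO and of 0.5, 1 and 2 h of dTAG47, and experiment 6086 had groups of DMSO and of 2, 4 and 24 h, each group with 2 libraries named A and B here. How long the control cells were in DMSO, and whether the tagged cells are 1 clone, is not in the labels. Untagged cells given dTAG47 were not analysed here, so what follows loss of the fusion and what the compound does besides cannot be told apart. Nothing says that libraries of a group were grown separately, so the p-values rest on the spread between these libraries, which may be technical.

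PAX3 is a transcription factor of the neural crest and of muscle precursors that binds DNA through a paired domain and a homeodomain. FOXO1 is a forkhead transcription factor held in the cytoplasm by insulin and growth factor signalling. In alveolar rhabdomyosarcoma a translocation between chromosomes 2 and 13 joins the front of PAX3, with its promoter and both DNA-binding domains, to the end of FOXO1, with its transactivation domain. The fusion is therefore transcribed from the PAX3 promoter, while the FOXO1 promoter stays with the reciprocal product. Reads from a rearranged and from an intact copy of either gene fall in the same region and cannot be told apart in these counts.

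The promoters of both genes, as listed by RefSeq on GRCh38.p14, are shown because one drives the fusion and the other was separated from it. The build differs from that of the regions, so these positions are not to be set against them. Both promoters lie on the minus strand and run 5′ to 3′, from upstream of the start of the gene to shortly past it. Capitals mark CCAAT boxes on either strand (CCAAT or ATTGG).
PAX3, chr2:222298949-222299248: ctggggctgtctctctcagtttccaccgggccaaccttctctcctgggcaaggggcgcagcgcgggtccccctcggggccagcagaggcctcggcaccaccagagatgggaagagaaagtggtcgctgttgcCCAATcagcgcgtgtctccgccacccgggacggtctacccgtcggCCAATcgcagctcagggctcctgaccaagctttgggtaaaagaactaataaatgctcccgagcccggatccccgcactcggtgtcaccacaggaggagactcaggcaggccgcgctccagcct
FOXO1, chr13:40666592-40666891: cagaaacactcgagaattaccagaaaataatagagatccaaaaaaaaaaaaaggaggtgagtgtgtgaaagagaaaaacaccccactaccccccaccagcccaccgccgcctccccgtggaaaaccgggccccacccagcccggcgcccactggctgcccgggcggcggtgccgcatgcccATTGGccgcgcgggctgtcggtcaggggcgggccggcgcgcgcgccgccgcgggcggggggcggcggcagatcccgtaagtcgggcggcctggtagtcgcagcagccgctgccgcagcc
PAX3 held 2 CCAAT boxes and FOXO1 held 1, and 34.6% of the 35116 RefSeq promoters of this length held at least 1. GC boxes (GGGCGG or CCGCCC), which 45.0% of promoters held, numbered 5 in FOXO1 and 0 in PAX3. Neither promoter held a TATA box (TATAAA, either strand), found in 11.5% of promoters. The homeodomain core TAATTA, found in 4.84%, was in neither. The FOXO element GTAAACA (either strand), found in 3.42%, was in neither as well. The GC content was 64.7% for PAX3 and 68.0% for FOXO1, against a median of 58.7%. These are matches of letters and not evidence of binding. In the same RefSeq table CCDC140 overlaps PAX3, and the nearest coding genes on either side of PAX3 are EPHA4 and RNF228. On the side of higher coordinates MRPS31 is the nearest coding gene to FOXO1. No annotation on hg19 was used here, so no region was assigned to a promoter, exon or intron.

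Regions are numbered along the chromosome as in experiment 6086. At PAX3 these are PAX3-1 (chr2:223092830-223093152), PAX3-2 (chr2:223148291-223148709), PAX3-3 (chr2:223162979-223164203), PAX3-4 (chr2:223182781-223184208) and PAX3-5 (chr2:223184486-223185536). At FOXO1 they are FOXO1-1 (chr13:41114494-41114800), FOXO1-2 (chr13:41137099-41137438), FOXO1-3 (chr13:41152260-41152600), FOXO1-4 (chr13:41163827-41164286), FOXO1-5 (chr13:41164413-41164550), FOXO1-6 (chr13:41164700-41164918) and FOXO1-7 (chr13:41255467-41256139). Every region of experiment 6211 in the windows overlapped one of these and carries its number. PAX3-4 met a pair of them, PAX3-4a (chr2:223182857-223183257) and PAX3-4b (chr2:223183862-223184262), and so did PAX3-5, with PAX3-5a (chr2:223184558-223184958) and PAX3-5b (chr2:223185146-223185546). No region of 6211 overlapped FOXO1-3 or FOXO1-5. In the FOXO1 window, 90.5 kb between FOXO1-6 and FOXO1-7 held no region in 6086, and the matching stretch in 6211 was 90.8 kb.

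Depth ranged from 9934147 to 18275976 reads in regions per library in 6211 and from 18038062 to 31308682 in 6086. Member regions held 119 to 1524 reads per library in 6211. In 6086 they held 151 to 2617, apart from FOXO1-5 with 19 to 41. All members passed the filter on low counts, and CPM below are read counts scaled by TMM to the reads in regions of each library.

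The highest levels were at PAX3, where 2 of 5 regions in 6086 and 3 of 7 in 6211 lay above the 90th percentile of all regions, against 1 of 7 and 0 of 5 at FOXO1. Levels are compared per length, as CPM per kb of region, within each experiment. In 6086 the median over all 56945 regions tested was 32.9 CPM per kb, and PAX3-2 had 110 ± 11.04 (SD over the 8 libraries), at the 99.7th percentile. No library of another PAX3 region came near it: it ranged from 92.9 to 129 CPM per kb, and PAX3-4, the next, from 54.5 to 62.5. PAX3-3 followed at 48.1 to 52.8, overlapping PAX3-1 at 36.4 to 51.8, and PAX3-5 was last at 22.1 to 24.2. These regions differ in width, from 323 to 1428 bp at PAX3. By CPM over the whole region, with no division by length, PAX3-4 led (77.8 to 89.3 CPM) and PAX3-2 ranked 3 (38.9 to 54.1 CPM).

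At FOXO1 in 6086 the highest level was at FOXO1-4, with 70.6 ± 1.94 CPM per kb (SD over the 8 libraries) a range of 68.0 to 74.0 and the 96.5th percentile of all regions. FOXO1-1 (47.4 to 57.0), FOXO1-2 (34.8 to 60.6) and FOXO1-6 (40.7 to 50.6) overlapped one another. FOXO1-7 had 24.8 to 30.7 CPM per kb, within the span of FOXO1-3 from 18.4 to 36.9. FOXO1-5 was lowest, at 5.50 to 9.77 CPM per kb, the 0.149th percentile of all regions.

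In 6211, where all members were 401 bp wide, the median over all regions was 44.8 CPM per kb. PAX3-4a had 188 ± 18.0 CPM per kb (SD over the 8 libraries) at the 97.7th percentile, PAX3-2 had 140 ± 11.1 and PAX3-3 had 137 ± 8.93. The ranges of PAX3-2 (128 to 159) and PAX3-3 (127 to 154) overlapped each other, and that of PAX3-4a (153 to 209) reached down into both. PAX3-1, PAX3-4b, PAX3-5a and PAX3-5b lay far lower, with means of 32.4 to 35.4 CPM per kb. FOXO1-4 led its window with 103 ± 4.87 CPM per kb, at the 87.5th percentile, above FOXO1-2 at 64.0 ± 3.74, FOXO1-1 at 50.2 ± 3.59, FOXO1-7 at 46.7 ± 5.03 and FOXO1-6 at 36.7 ± 2.44. By mean CPM per kb, both experiments thus placed PAX3-2, PAX3-3 and PAX3-4 highest at PAX3, and FOXO1-4 at the top of its window. For PAX3-4 in 6211 this held for PAX3-4a only, as PAX3-4b had a mean of 34.1 CPM per kb.

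**Figure D1:**
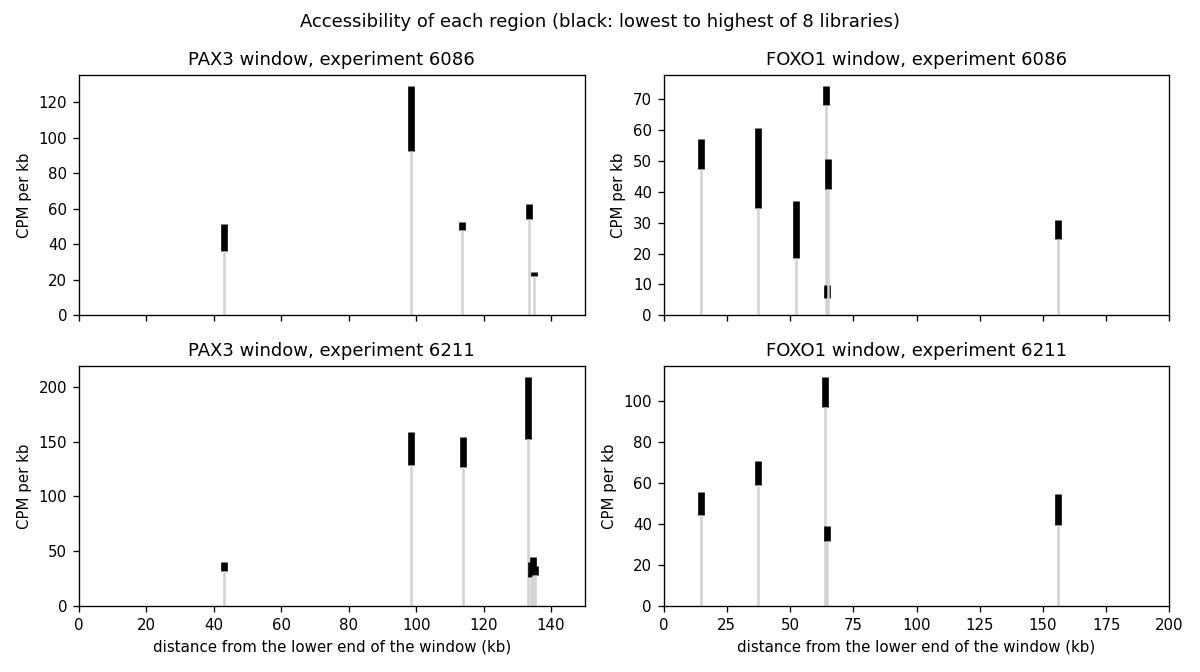
Accessibility of each region in CPM per kb (vertical axis) against its distance in kb from the lower end of the PAX3 window (left) or FOXO1 window (right), for experiment 6086 (top) and 6211 (bottom). Black bars span the lowest to the highest of 8 libraries and grey lines lead to 0; in 6086 PAX3-2 spans 92.9 to 129 CPM per kb, above every other PAX3 region.

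Within the first 2 h of dTAG47 in experiment 6211, no PAX3 or FOXO1 region passed an adjusted p of 0.05 (quasi-likelihood test of edgeR, Benjamini-Hochberg adjusted over all regions). The comparison asks how soon the fusion's own gene partners respond. At 0.5 h the count was 0 of 12, beside 0.00735% of all regions called. At 1 h it was 0 of 12 beside 2.69%, and at 2 h it was 0 of 12 beside 6.89%. DESeq2 also called 0 members at each of these times. Over the 36 log2 changes from DMSO the lowest was -0.27 and the highest 0.29, and 3 had an unadjusted p under 0.05. Of all 40844 regions, 2723 had such a p at 0.5 h, 6687 at 1 h and 8284 at 2 h, so these 3 do not stand out.

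PAX3-2 had 51.5 CPM in DMSO library A and 55.4 in library B. It had 53.0 and 55.4 CPM at 0.5 h, 51.5 and 59.6 at 1 h, and 60.0 and 63.7 at 2 h. Both 2 h libraries lay above both DMSO libraries, while those of 0.5 and 1 h overlapped DMSO. The log2 change at 2 h was 0.21 (SE 0.09, 95% interval 0.03 to 0.39), with an adjusted p of 0.16 in edgeR.

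PAX3-4a had the highest level of the window in 6211. DMSO libraries A and B had 72.9 and 79.5 CPM there, and the 2 h libraries had 72.0 and 61.2. The groups did not overlap, although the nearest libraries were less than 1 CPM apart, and the log2 change was -0.19 (SE 0.09, 95% interval -0.37 to -0.01, adjusted p = 0.22 in edgeR). The value rested on 1 library, being -0.08 without 2 h library B (adjusted p = 0.81) and -0.31 without 2 h library A (adjusted p = 0.091). At PAX3-3, next along the chromosome, DMSO had 61.7 and 53.9 CPM and 2 h had 54.7 and 50.9, so these groups overlapped (log2 change -0.13, SE 0.09, adjusted p = 0.44 in edgeR).

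At FOXO1 the third change with an unadjusted p under 0.05 was at FOXO1-7 after 0.5 h. Its DMSO libraries had 20.6 and 18.4 CPM and its 0.5 h libraries had 15.97 and 16.4 CPM. The log2 change was -0.27 (SE 0.12, adjusted p = 0.73 in edgeR) at 0.5 h, and it was -0.05 at 1 h and 0.05 at 2 h. FOXO1-4, with the highest level of the window, had 42.2 and 38.9 CPM in DMSO, and 42.3 and 42.4 CPM at 2 h (log2 change 0.06, SE 0.09, 95% interval -0.13 to 0.25). FOXO1-2 had 25.8 and 24.5 CPM in DMSO and 25.6 and 28.5 CPM at 2 h, overlapping groups with a log2 change of 0.10 (SE 0.11).

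Between 0.5 and 2 h, tested directly without DMSO, 0 of 12 members were called by edgeR and 0 by DESeq2, beside 1.42% of all regions called by edgeR. An unadjusted p under 0.05 was found for 3 members (FOXO1-7, PAX3-4a and PAX3-2), beside 4985 of all 40844 regions. Among the log2 changes of all 12 members FOXO1-7 had the highest, 0.32 (SE 0.13, adjusted p = 0.27 in edgeR), and PAX3-4b the lowest, -0.28 (SE 0.15, adjusted p = 0.48). PAX3-4a was at -0.23 (SE 0.09) and PAX3-2 at 0.19 (SE 0.09). On counts simulated for the 2 h comparison in 6211, the test recovered 8% of 1.2-fold changes among 40844 regions (4 of 50). It recovered 74% of 1.5-fold changes (37 of 50). A change of 1.2-fold at a member could therefore be missed at this depth. The simulation gave all regions a common spread and changed far fewer regions than were called at 2 h, so recovery in the data may differ.

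**Figure D2:**
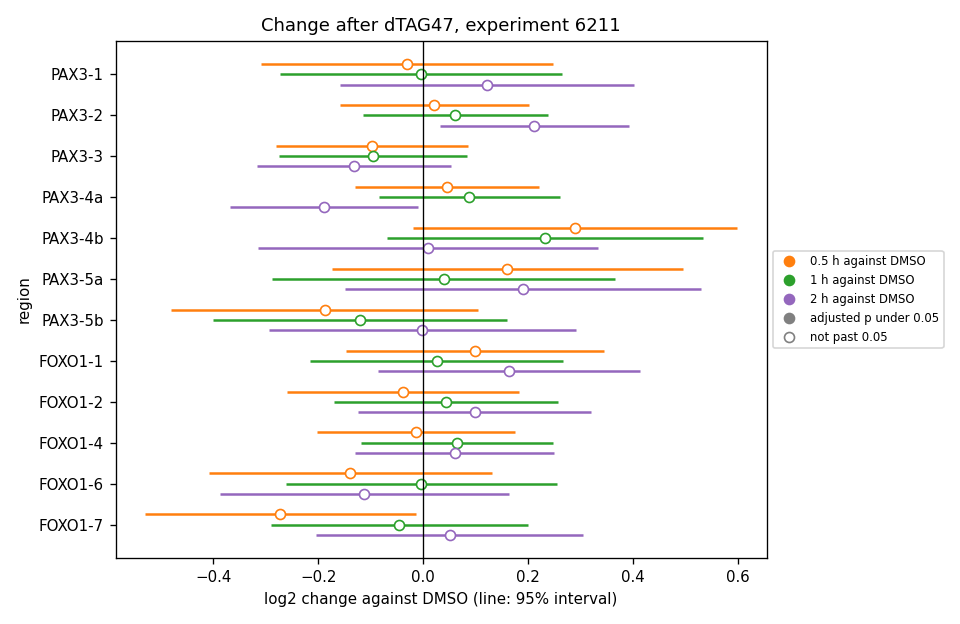
Log2 change against DMSO (horizontal axis, with its 95% interval) for each of the 12 regions of experiment 6211 (vertical axis) at 0.5, 1 and 2 h of dTAG47. All symbols are open because no region passed an adjusted p of 0.05, and the changes lie between -0.27 and 0.29.

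In experiment 6086 a single member, FOXO1-3, fell at 2 h and at 4 h, and it was above DMSO at 24 h. It had 9.47 CPM in DMSO library A and 9.07 in library B. At 2 h the libraries had 6.47 and 6.37 CPM, and at 4 h they had 6.98 and 6.27. At 24 h they had 12.1 and 12.6 CPM. The 2 and 4 h libraries were all below DMSO and the 24 h libraries were both above it. None of these groups overlapped DMSO. Each time was compared with the same DMSO libraries, so the falls at 2 and 4 h are not independent of each other.

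At 2 h the mean of FOXO1-3 was 6.42 ± 0.0703 CPM against 9.27 ± 0.277 CPM in DMSO (SD, n = 2), which is -0.52 on the log2 scale (SE 0.11, adjusted p = 0.0024 in edgeR). At 4 h the mean was 6.63 ± 0.501 CPM (log2 change -0.48, SE 0.11, adjusted p = 0.0040 in edgeR). FOXO1-3 was 1 of 12 members called at 2 h, beside 5.22% of all regions called and 4.25% called lower, and 1 of 12 at 4 h, beside 7.19% and 5.44%. DESeq2 did not call it at either time (adjusted p = 0.059 and 0.076). The authors' deposited table has the same adjusted p-values of 0.059 and 0.076 for it. It covers the same libraries and is no separate evidence. Without 4 h library B the 4 h change was -0.40 (adjusted p = 0.12 in edgeR).

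By 24 h FOXO1-3 had risen to 12.3 ± 0.361 CPM, 1.33-fold above DMSO (log2 change 0.42, SE 0.10, adjusted p = 0.00095 in edgeR). Compared with 2 h directly, without DMSO, it was 1.92-fold higher at 24 h (log2 change 0.94, SE 0.10, adjusted p = 8.0e-09 in edgeR). DESeq2 called both of these changes. The authors' deposited table, which covers the same libraries and is no separate evidence, gives FOXO1-3 a log2 change of 0.42 at 24 h with an adjusted p of 0.033. FOXO1-3 was a region of low level, at the 20.6th percentile of CPM per kb, and had 151 to 397 reads per library.

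Its neighbour FOXO1-2, 14.8 kb away, moved in the opposite direction at 24 h. FOXO1-2 had 17.4 and 18.1 CPM in DMSO libraries A and B, 19.8 and 20.6 at 2 h, and 18.6 and 18.3 at 4 h. At 24 h it had 11.8 and 12.04 CPM, below every library of the earlier groups. The mean fell from 17.8 ± 0.488 to 11.9 ± 0.143 CPM (SD, n = 2), 1.49-fold (log2 change -0.58, SE 0.08, adjusted p = 1.2e-06 in edgeR). At 2 h its log2 change was 0.18 (SE 0.08, adjusted p = 0.23), although both 2 h libraries lay above DMSO. From 2 to 24 h it fell 1.69-fold (log2 change -0.76, SE 0.08, adjusted p = 5.3e-09 in edgeR). In 6211, where FOXO1-2 was measured up to 2 h, its log2 change at 2 h was 0.10 (SE 0.11).

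The other FOXO1 regions did not pass the threshold at any time in 6086. FOXO1-4 had 32.3 and 31.4 CPM in DMSO and 32.4 and 34.1 CPM at 24 h, with a log2 change of 0.07 (SE 0.06, 95% interval -0.07 to 0.20, adjusted p = 0.49 in edgeR). All its libraries in 6086 lay between 31.3 and 34.1 CPM. FOXO1-7, beyond the long stretch without regions, had 20.2 and 18.6 CPM in DMSO and 18.2 and 20.1 at 24 h (log2 change -0.01, SE 0.08, 95% interval -0.18 to 0.16). FOXO1-1 had 16.02 and 16.7 CPM in DMSO and 14.6 and 15.5 at 24 h, groups that did not overlap (log2 change -0.13, SE 0.08, adjusted p = 0.27). FOXO1-6 had 11.1 and 8.92 CPM in DMSO, and its libraries of the other groups lay within that span. The interval of FOXO1-5 at 24 h ran from -0.69 to 0.48, so at its depth changes well above 1.2-fold in either direction were not detectable.

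The regions that rose at PAX3 in 6086 were PAX3-1 and PAX3-2, both after 24 h. PAX3-2 had 38.9 CPM in DMSO library A and 43.7 in library B, then 45.4 and 42.8 at 2 h, 47.7 and 47.0 at 4 h, and 49.8 and 54.1 at 24 h. The 2 h libraries overlapped DMSO, and the 4 h and 24 h libraries all lay above it. The mean went from 41.3 ± 3.37 CPM in DMSO to 51.9 ± 3.06 CPM at 24 h (SD, n = 2), 1.25-fold (log2 change 0.32, SE 0.06, adjusted p = 7.8e-05 in edgeR). At 4 h the log2 change of PAX3-2 was 0.19 (SE 0.06, adjusted p = 0.069 in edgeR). That value passed with library size as the only scaling (0.20, adjusted p = 0.042) and without DMSO library B (0.28, adjusted p = 0.011), and it was 0.12 without DMSO library A (adjusted p = 0.44). From 2 to 24 h the log2 change was 0.24 (SE 0.06, adjusted p = 0.0025 in edgeR), which missed the threshold without 2 h library B (adjusted p = 0.069) and without 24 h library B (adjusted p = 0.084).

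PAX3-1, the region nearest the lower end of the window, had 13.5 and 11.9 CPM in DMSO libraries A and B. It had 11.7 and 13.3 CPM at 2 h, 13.0 and 12.4 at 4 h, and 15.3 and 16.7 at 24 h. The early groups overlapped DMSO and the 24 h libraries lay above all of them. The mean rose from 12.7 ± 1.11 to 16.01 ± 1.02 CPM (SD, n = 2), 1.27-fold (log2 change 0.34, SE 0.09, adjusted p = 0.0035 in edgeR), and it was 1.28-fold above 2 h (log2 change 0.36, SE 0.09, adjusted p = 0.0024). Without DMSO library B the 24 h change was 0.25 (adjusted p = 0.095), and without 24 h library B it was 0.28 (adjusted p = 0.068). Between 2 and 24 h it was 0.27 (adjusted p = 0.088) without 2 h library A and 0.29 (adjusted p = 0.055) without 24 h library B. In the authors' deposited table PAX3-1 has an adjusted p of 0.048 and PAX3-2 of 0.00076 at 24 h.

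The 3 wide regions of the PAX3 window did not pass the threshold at any time, and no PAX3 region did at 2 h (log2 changes from -0.10 to 0.09) or at 4 h (-0.12 to 0.19). PAX3-3 had 64.7 and 63.3 CPM in DMSO and 62.8 and 61.7 at 24 h (log2 change -0.04, SE 0.05, 95% interval -0.14 to 0.07, adjusted p = 0.63 in edgeR). Its groups did not overlap, although their means differed 1.03-fold. PAX3-4 had 80.8 and 89.3 CPM in DMSO and 77.8 and 82.9 at 24 h (log2 change -0.09, SE 0.05, 95% interval -0.19 to 0.02, adjusted p = 0.23). Without DMSO library A that value was -0.15, with an adjusted p of 0.032. PAX3-5 had 25.3 and 25.5 CPM in DMSO and 24.1 and 24.3 at 24 h (log2 change -0.07, SE 0.07, 95% interval -0.21 to 0.07, adjusted p = 0.50).

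Counted over both windows, 4 of 12 members were called at 24 h, or 33.3%, beside 32.2% of all 56945 regions, so this share is close to the background of that test and is no result about these genes. Of the members 3 were higher and 1 was lower, beside 13.6% of all regions called higher and 18.6% called lower. The median log2 change over the 12 members was -0.02, and over all regions it was -0.0031. TMM scaling holds the median over all regions near 0, so changes are relative and one shared by all regions would not be seen. Between 2 and 24 h, 4 of 12 were called, 3 higher and 1 lower, beside 30.4% of all regions, with 12.8% called higher and 17.6% lower. DESeq2 called 4 members in each of these comparisons, beside fewer of all regions, 11323 of 56949 at 24 h and 9694 of 56949 between 2 and 24 h. The members' share was therefore further from the background in DESeq2, which called fewer regions in all. With 12 members this distance is not read as a result about these genes either. Neither share was tested against its background. On counts simulated for 2 h in 6086, the test recovered 14% of 1.2-fold changes among 56943 regions (7 of 50). It recovered 84% of 1.5-fold changes (42 of 50). That simulation gave all regions a common spread and changed far fewer regions than were called in the data. It therefore does not give the share of changes recovered at 24 h.

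**Figure D3:**
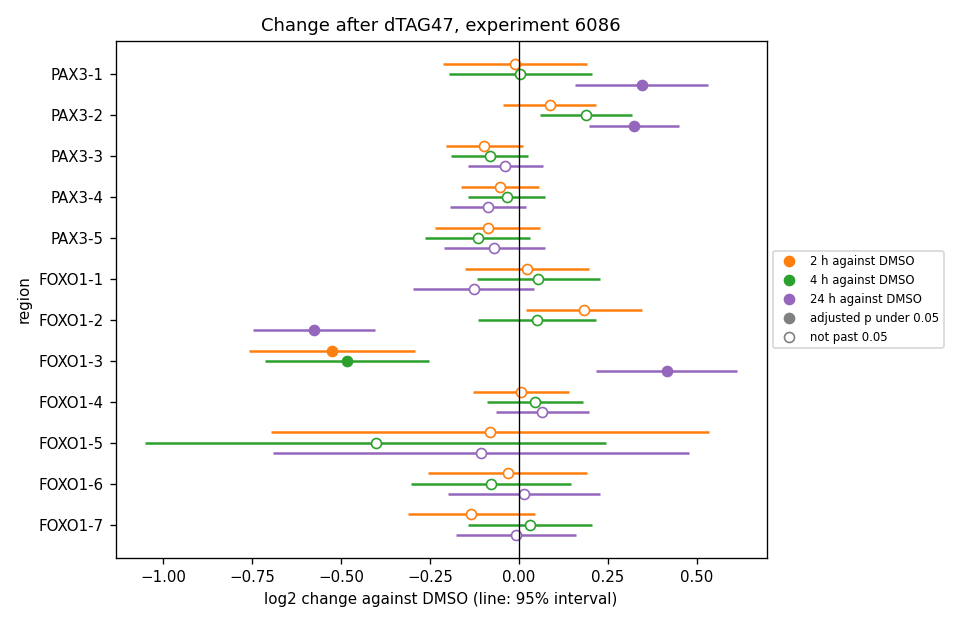
Log2 change against DMSO (horizontal axis, with its 95% interval) for each of the 12 regions of experiment 6086 (vertical axis) at 2, 4 and 24 h of dTAG47. Filled symbols passed an adjusted p of 0.05; FOXO1-3 is filled at all 3 times, at -0.52, -0.48 and 0.42, and PAX3-1, PAX3-2 and FOXO1-2 are filled at 24 h.

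**Figure D4:**
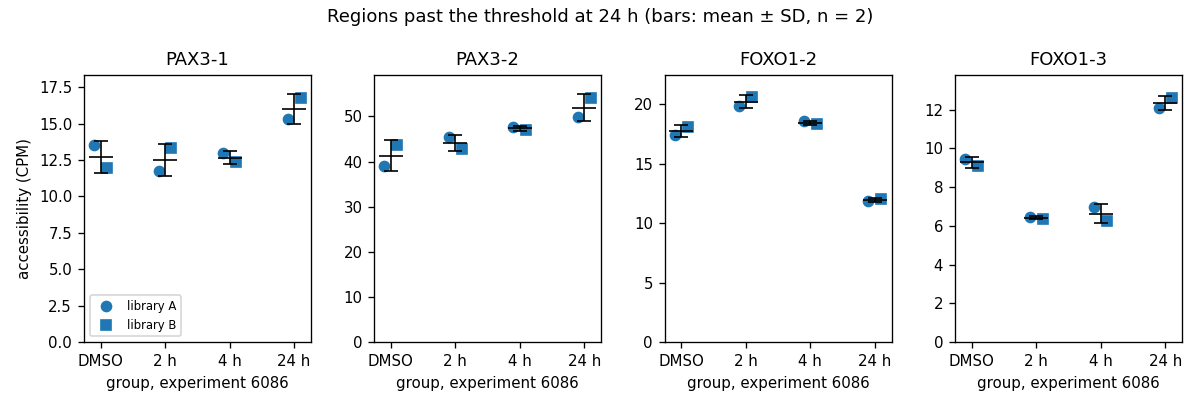
Accessibility in CPM (vertical axis, from 0) of the 4 regions past the threshold at 24 h, in each library of experiment 6086 by group (horizontal axis). Circles are library A, squares library B, and black bars the mean ± SD of 2 libraries; FOXO1-3 goes from 9.27 CPM in DMSO to 6.42 at 2 h and 12.3 at 24 h.

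CPM was also summed over the regions of each window. These sums say little of single regions, since the wide PAX3-3 and PAX3-4 make up most of the PAX3 sum and the called FOXO1 regions moved in opposite directions. The 5 PAX3 regions of 6086 together had 228 ± 7.46 CPM in DMSO and 235 ± 7.05 CPM at 24 h (SD, n = 2), 103% of DMSO. The 7 FOXO1 regions had 106 ± 2.71 CPM in DMSO and 103 ± 3.15 CPM at 24 h, 97.1% of DMSO. In 6211 the sums at 2 h were 98.6% of DMSO at PAX3 and 105% at FOXO1. All these differences were within the summed SDs of the groups compared. With 2 libraries a group no test was made on these sums. In 6086 the PAX3 flanks of 1 Mb on each side had 535 ± 2.27 CPM in DMSO and 497 ± 9.03 at 24 h (SD, n = 2). That was 92.7% of DMSO. The FOXO1 flanks had 646 ± 16.1 CPM in DMSO and 703 ± 9.73 CPM at 24 h, 109% of DMSO. Both flank differences were larger than the summed SDs, and neither was tested.

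The 2 h effect was measured in both experiments, with separate DMSO groups, and 7 members could be matched between them by 50% reciprocal overlap. The difference of the effects (6211 minus 6086) ranged from -0.11 at FOXO1-2 to 0.16 at FOXO1-7, with SEs of 0.10 to 0.17. In edgeR's test of that difference 0 of the 7 members passed and 0 had an unadjusted p under 0.05, beside 0% of the 29639 matched regions, of which 1835 had an unadjusted p under 0.05. PAX3-2 had a log2 change of 0.09 (SE 0.06) at 2 h in 6086 and 0.21 (SE 0.09) in 6211, a difference of 0.10 (SE 0.11). FOXO1-3 could not be compared, having no region in 6211.

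Regions with the pattern most like that of a member were sought over the 16 libraries, as the Pearson r of log2-CPM centred within each experiment, among 29631 matched regions outside the windows. For PAX3-1 the nearest were chrX:23407290-23407676 (r = 0.928), chr9:34027922-34028171 (r = 0.918) and chr10:32425794-32426194 (r = 0.903), with 24 h log2 changes of 0.30, 0.69 and 0.31. For FOXO1-2 they were chr20:49261898-49262687 (r = 0.973), chr16:11713236-11713611 (r = 0.972) and chr12:129281996-129282302 (r = 0.971), which changed by -0.75, -1.49 and -0.78 at 24 h. These 3, picked by that likeness, had small positive changes at 2 h (0.20, 0.13 and 0.10 in 6086) and losses at 24 h, as FOXO1-2 had. At 4 h they were at 0.04, -0.08 and -0.10, and FOXO1-2 was at 0.05. The highest r with another member was 0.685 for PAX3-1 and 0.562 for FOXO1-2. The libraries are shared by all regions, and the highest r among so many is a description only.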

How the data were processed

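ATAC-seq regions were analysed in 16 libraries, 8 in each of experiments 6086 and 6211. Per the submitters' processing notes, builds hg19 and dm3 were in use, as were deepTools, DESeq2, DiffBind, Genrich 0.6.1, Bowtie2 and Trimmomatic 0.32; no role is given for any. The authors deposited raw read counts per region, and their comparison tables hold log2 fold changes and adjusted p-values, per the file headers. No per-sample column was left unmapped. The letters A and B come from the column names and could not be tied to the labels' replicate numbers.

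Each experiment's whole table was fitted with edgeR 4.0.16 (R 4.3.3): TMM scaling, filterByExpr, a mean for each group, the quasi-likelihood F test, and Benjamini-Hochberg adjustment over all regions tested, with a threshold of 0.05. The SE is the log2 change divided by the root of F. The 2 h effects of both experiments were compared in 1 fit over regions matched with bedtools 2.31.1 by 50% reciprocal overlap. The test was tried on simulated counts. Total reads in regions limit precision, and the region sets differ between experiments (widths of 74 to 9858 bp in 6086 and 401 to 1175 bp in 6211), so levels were compared only within one. Libraries were not treated as paired by letter. The correlations of same-letter deviations ran from -0.14 to 0.15 in 6086 and from -0.052 to 0.21 in 6211, which does not exclude a pairing.

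Named with full values were members past the threshold in a comparison with DMSO and the 3 with the highest CPM per kb in each window; others were named after their values were seen. Regions with a like pattern are the 3 of highest r with the matched member of the largest called 24 h change in each window, among matched regions with a mean count of at least 30 in both tables. The members and lists were chosen with earlier results of these data known. A list of related and target genes was planned, but it was not run, since no hg19 annotation was used here. Alternatives were DESeq2 1.42.0, other scalings (median-ratio size factors, library size, loess offset), no filter, only the groups compared, a stricter threshold, wider windows, any overlap, a replicate block, leaving out each library, and levels as CPM per region.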

Additional observations from a re-analysis of the deposited data

Results flagged for a closer look

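At 4 regions the effect at 24 h differed from the effect at 2 h in a direct test of the difference, 24 h against 2 h in experiment 6086 with edgeR's quasi-likelihood test. These were 4 of 12 members, beside 30.4% of all regions called in that test, so the count is no result about these genes. The log2 difference was 0.94 (adjusted p = 8.0e-09) at FOXO1-3, where the effect against DMSO was -0.52 at 2 h and 0.42 at 24 h. It was -0.76 (adjusted p = 5.3e-09) at FOXO1-2, where the effect was 0.18 at 2 h and -0.58 at 24 h. At PAX3-1 it was 0.36 (adjusted p = 0.0024), and at PAX3-2 it was 0.24 (adjusted p = 0.0025). Over 11 alternative settings it ran from 0.27 to 0.45 at PAX3-1 and from 0.18 to 0.30 at PAX3-2. Both of these calls were lost when certain single libraries were left out. The 24 h group and the 2 h group each had 2 libraries, and in all 4 regions both 24 h libraries lay on the same side of both 2 h libraries. The regions were picked by the test on these same libraries, so that separation adds no support.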

How the results depend on the processing

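Each called member change was recomputed under 11 alternatives on the same libraries, 110 refits in all. Of these refits 101 stayed past the threshold and 9 did not. The 9 fell on FOXO1-3 at 2 and 4 h, PAX3-1 at 24 h and from 2 to 24 h, and PAX3-2 from 2 to 24 h. Of 506 refits of named member changes that were not called, 3 passed. Many alternatives differ little, so these counts are not separate checks. No direction of a called change reversed. DESeq2 called 0 FOXO1 members at 2 h and 0 at 4 h in 6086, against 1 each in edgeR. With library size as the only scaling, 1 PAX3 member passed at 4 h, against 0. Leaving out 1 library gave 0 to 1 PAX3 members and 0 to 1 FOXO1 members at 4 h, 1 to 3 PAX3 members at 24 h (2 with all libraries) and 0 to 2 between 24 and 2 h (2 with all libraries). By CPM per region PAX3-2 ranked 3 instead of 1 in 6086. FOXO1-2 at 24 h ranged from -0.60 to -0.54, FOXO1-3 from 0.39 to 0.44 and PAX3-2 from 0.25 to 0.42, past the threshold in all 11 settings run for each.

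Windows widened by 100 kb on each side held 9 regions at PAX3 and 14 at FOXO1 in 6086, and 10 and 9 in 6211. In 6086 the called regions at PAX3 and FOXO1 were 4 and 5 at 24 h (32.2% of all regions called), 4 and 6 between 24 and 2 h (30.4%), 1 and 2 at 4 h (7.19%), and 1 and 2 at 2 h (5.22%). In 6211 they were 1 and 1 at 2 h (6.89%) and 0 and 1 at 1 h (2.69%).

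With a replicate block by library letter the counts were 2 at PAX3 and 2 at FOXO1 at 24 h, and 1 at FOXO1 at 2 h and at 4 h, as without the block. Whether the letters mark pairs is not known, and the weak correlations of same-letter deviations cannot exclude it. Over all regions the block raised the calls in 6211 (from 2815 to 3165 at 2 h). It lowered them in 6086 (from 18353 to 17836 at 24 h). With 2 libraries a group, 1.2-fold changes were often missed on simulated counts.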

Other observations

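Some regions just outside the windows were also called, and they were singled out after their values were seen. No difference between them and the members was tested. Their calls come from edgeR with all libraries, and they were not checked with DESeq2 or with single libraries left out. On the PAX3 side, chr2:223006816-223007021, 43.0 kb below the window, fell in 6086 from 9.07 ± 0.162 CPM in DMSO to 6.65 ± 0.0971 at 2 h and 4.91 ± 0.311 at 24 h (SD, n = 2). Its log2 changes were -0.44 at 2 h (adjusted p = 0.014 in edgeR), -0.63 at 4 h (adjusted p = 0.00027) and -0.88 at 24 h (adjusted p = 1.9e-07). The region overlapping it in 6211, chr2:223006711-223007111, fell from 15.2 ± 1.81 to 8.92 ± 0.902 CPM at 2 h (log2 change -0.77, SE 0.16, adjusted p = 0.0023 in edgeR), so the loss at 2 h was called in both experiments.

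On the FOXO1 side, chr13:41015328-41015762, 84.2 kb below the window, fell at 2 h in 6086 (log2 change -0.49, adjusted p = 0.00037 in edgeR) and at 4 h (-0.43, adjusted p = 0.0014). At 24 h it was at -0.19 (adjusted p = 0.10), and it rose by 0.31 from 2 to 24 h (adjusted p = 0.0080). The overlapping region in 6211, chr13:41015410-41015810, fell at 1 h (-0.45, adjusted p = 0.028 in edgeR) and at 2 h (-0.41, adjusted p = 0.032). Further along, chr13:41016477-41016893 had 5.90 ± 0.504 CPM in DMSO and 11.3 ± 0.251 CPM at 24 h, a log2 rise of 0.93 (SE 0.11, adjusted p = 3.0e-08 in edgeR).

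Within 1 Mb on each side, the share of regions called at 24 h was near the 32.2% of all regions (13.6% higher and 18.6% lower). At PAX3 14 of 35 regions (40.0%) were called, 3 higher and 11 lower, with a median log2 change of -0.15. At FOXO1 17 of 49 (34.7%) were called, 13 higher and 4 lower, with a median of 0.10. The difference between the flanks was not tested. Which gene these regions belong to was not determined here.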
